A study of Mus musculus with 6 samples.

Results

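The ligands and receptors of the fibroblast growth factor (FGF), platelet-derived growth factor (PDGF), vascular endothelial growth factor (VEGF) and hepatocyte growth factor (HGF) families were read on arrays of mouse ovarian surface epithelial cells before and after spontaneous transformation. Members were taken by gene symbol, with no measured value in the rule, though earlier results of these data were known when it was set. All 44 genes so named were found among the 20405 genes of the table. They are 22 FGF ligands, 5 FGF receptor genes, 4 PDGF ligands, 3 PDGF receptor genes, 5 VEGF ligands, 3 VEGF receptors, and *Hgf* with its receptor *Met*. Each of the 44 was represented by its probe set with the highest mean, and *Pdgfrl* alone had a second probe set.

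In these families a secreted ligand brings receptor tyrosine kinases together on the cell surface, and the receptors then signal through adaptors to the Ras-MAPK and PI3K pathways. FGFs signal with heparan sulfate as a cofactor and fall into subfamilies that prefer different receptors, and some members of the family stay inside the cell. VEGF receptors are best known from blood and lymphatic endothelium, PDGF receptors from fibroblasts and pericytes, and Met from epithelia that respond to HGF made by neighbouring mesenchyme.

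The comparison was between RNA of M0505, a line of ovarian surface epithelium from FVB/N mice (3 arrays), and STOSE, the line that arose from M0505 on long-term passage and forms tumors (3 arrays). Neither line is described as treated or genetically engineered, and both grew in the same medium, which contains serum and EGF. Each group is a single line, so the 3 arrays named as biological replicates measure the spread within that line and not between independent lines, and the age of the mice was not given in the sources used here. The values are log2 robust multi-array average (RMA) intensities from Mouse Gene 1.0 ST arrays of Affymetrix, where a difference of 1 is a 2-fold change and values of different genes are not compared because their probes differ.

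Array medians over all 28944 probe sets lay between 5.64 and 5.68, and over the 20405 genes tested they lay between 6.46 and 6.49 in M0505 arrays and between 6.25 and 6.29 in STOSE arrays. Arrays of the same line correlated at a Pearson's r of 0.997 to 0.999 and arrays of different lines at 0.943 to 0.950, taken over genes, which are no replicates. Of 12 surface epithelium markers, 11 lay above the background in both lines. In STOSE cells 4 of them, or 33.3%, were called lower (*Krt19*, *Krt8*, *Gata4* and *Krt7*), against 7.59% of all genes. *Krt19* fell from 11.17 ± 0.02 (SD, n = 3) to 5.61 ± 0.27 and *Krt8* from 11.37 ± 0.03 to 6.82 ± 0.14. *Wt1* was at 11.39 ± 0.03 (SD, n = 3) and 10.76 ± 0.02 (SD, n = 3). The adjusted p described below was passed by 9 of the 12, all lower in STOSE cells, against 24.8% of all genes lower. Background here is a log2 value of 4.74, the 95th percentile of the 1134 probe sets of olfactory receptor genes, which these cells are taken not to use. An array has no read depth, and the number of arrays limits the precision. With 3 against 3 a two-sided exact permutation test cannot give a p below 0.1, so genes were tested with limma and adjusted over all 20405 genes. A gene is called higher or lower where this adjusted p lay under 0.05 and the lines differed 2-fold or more.

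Of the 44 genes, 3 were called higher in STOSE cells (*Fgf10*, *Met* and *Pdgfb*) and 6 were called lower (*Kdr*, *Fgf9*, *Fgfr3*, *Flt4*, *Fgfrl1* and *Fgf11*). Over all genes 4.9% were called higher, 7.59% lower and 12.5% in either direction, against 20.5% of the 44 in either direction. The adjusted p alone was passed by 27 of the 44, against 56.5% of all genes, with 14 higher (31.6% of all genes) and 13 lower (24.8% of all genes). All 12 receptor genes were among the 27. The arrays of the 2 lines did not overlap for 30 of the 44, close to the 64.6% of all genes. The median log2 difference of the 44 was 0.08, the same as the 0.08 of all genes. The log2 difference exceeded 4 in size for *Kdr*, *Fgf9*, *Fgfr3* and *Flt4*, and 0.588% of all genes reached that size, a limit set after the values were seen. By role, 4 of 32 ligands and 5 of 12 receptor genes were called. The higher count was 5 without STOSE replicate 3, and centring each array on its median made the counts 6 higher and 5 lower. The RNA is from whole cultures, in which fewer cells of a type and less RNA per cell cannot be told apart.

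**Figure D1:**
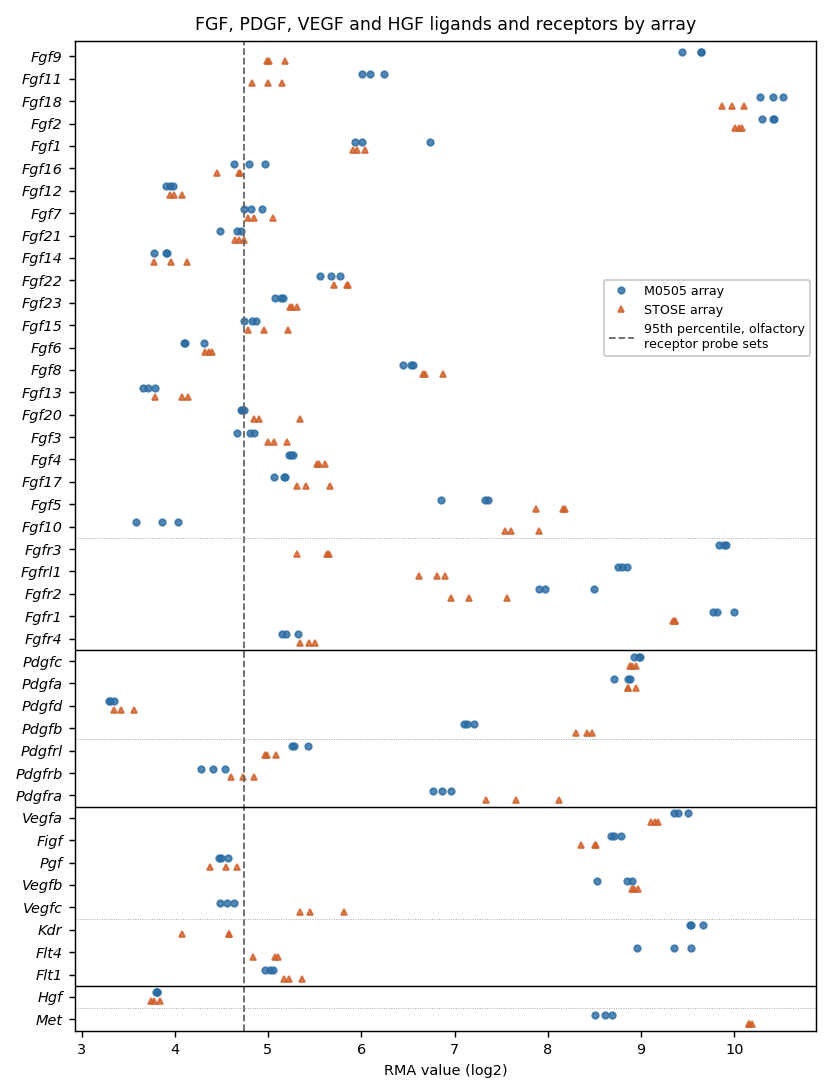
Log2 RMA value (horizontal axis) of each of the 44 genes in each of the 3 M0505 arrays (circles) and 3 STOSE arrays (triangles), grouped by family with solid lines and into ligands and receptors with dotted lines; the dashed line is the background of 4.74. *Kdr*, *Flt4*, *Fgfr3* and *Fgf9* lie near 9 to 10 in M0505 cells and near the background in STOSE cells, and *Fgf10* does the reverse from a lower start.

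Among the FGF ligands, *Fgf9* and *Fgf10* moved in opposite directions. *Fgf9* encodes a ligand known from the developing gonad, where it takes part in testis determination. It read 9.44, 9.64 and 9.64 in the M0505 arrays and 4.99, 5.01 and 5.18 in the STOSE arrays. All 3 STOSE arrays lay more than 4 log2 units under every M0505 array, just above the background. The fall was 22.9-fold (log2 difference −4.52, standard error 0.08, limma adjusted p = 5.20e-09) and ranked 60 among the 1548 genes called lower. Leaving out any 1 array gave 22.3-fold to 24.0-fold.

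*Fgf10* encodes a ligand usually made by mesenchyme, which acts on the FGFR2 of neighbouring epithelium in lung and limb development. It read 3.58, 4.03 and 3.87 in the M0505 arrays, all under the background, and 7.60, 7.90 and 7.54 in the STOSE arrays, all well above it. The rise was 14.5-fold (log2 difference 3.86, standard error 0.13, limma adjusted p = 1.16e-07) by the measured values. Because the M0505 level is not above background, the comparison with the background itself gives at least 7.67-fold higher.

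*Fgf11*, of the subfamily that stays inside the cell, read 6.01, 6.24 and 6.09 in the M0505 arrays and 4.82, 5.00 and 5.15 in the STOSE arrays. The groups did not overlap, and the fall was small at 2.18-fold (log2 difference −1.13, standard error 0.10, limma adjusted p = 1.92e-05). The call was lost when each array was centred on its median (log2 difference −0.93). The other members of that subfamily, *Fgf12*, *Fgf13* and *Fgf14*, lay under the background in both lines, with means of 3.72 to 4.01.

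*Fgf5*, a ligand known for ending the growth phase of the hair follicle, was higher in STOSE cells by 1.86-fold, under the 2-fold limit. Its arrays read 6.85, 7.32 and 7.36 in M0505 cells and 8.16, 8.19 and 7.87 in STOSE cells, without overlap (log2 difference 0.90, standard error 0.14, limma adjusted p = 8.37e-04). It passed the limit after a further quantile normalization (1.02) and after median centring (1.10).

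*Fgf2* and *Fgf18* were far above the background in both lines. *Fgf2*, the basic FGF that many cell types make, read 10.38 ± 0.07 (SD, n = 3) in M0505 cells and 10.05 ± 0.04 in STOSE cells. *Fgf18*, a ligand known from cartilage and bone, read 10.41 ± 0.12 and 9.98 ± 0.12. Both were lower in STOSE cells by less than 1.5-fold, at 1.26-fold (limma adjusted p = 0.00184) and 1.34-fold (adjusted p = 0.00315), with no overlap of the arrays. *Fgf1*, the acidic FGF, overlapped between the lines, and M0505 replicate 1 at 6.73 stood above the other 5 arrays, which read 5.91 to 6.04.

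The 19 FGF ligands that were not called spanned log2 differences from −0.43 to 0.90, with a median of 0.15. The adjusted p alone was passed by 8 of them, against 56.5% of all genes. Of these 19, 5 lay under the background in both lines. The paralogs closest to the genes that moved were not called. *Fgf16* and *Fgf20*, the subfamily of *Fgf9*, had log2 differences of −0.19 (95% interval −0.42 to 0.05) and 0.31 (0.03 to 0.59). In M0505 cells *Fgf16* (4.80 ± 0.17, SD, n = 3) and *Fgf20* (4.72 ± 0.02) read near the background of 4.74. A fall like that of *Fgf9* could therefore not have been seen in them. *Fgf7* and *Fgf22*, the nearest relatives of *Fgf10*, had log2 differences of 0.07 (−0.13 to 0.27) and 0.14 (−0.04 to 0.31), with *Fgf7* near the background in both lines (4.83 and 4.90). The endocrine FGF genes *Fgf15*, *Fgf21* and *Fgf23*, which need klotho proteins as co-receptors, read between 4.49 and 5.31 in every array and did not pass the adjusted p, and the klotho genes *Kl* and *Klb* lay under the background in both lines.

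All 5 FGF receptor genes passed the adjusted p, 4 of them lower in STOSE cells. Of all genes 56.5% passed it, 24.8% of all genes being lower. *Fgfr3*, the receptor best known from the control of bone growth, fell most. It read 9.84, 9.89 and 9.91 in the M0505 arrays and 5.66, 5.31 and 5.63 in the STOSE arrays. The standard deviation within a line was 0.03 and 0.19, and the lines were more than 4 log2 units apart. The fall was 20.3-fold (log2 difference −4.34, standard error 0.09, limma adjusted p = 1.06e-08) and was 18.8-fold to 21.2-fold when any 1 array was dropped.

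*Fgfrl1* encodes a receptor that binds FGFs but lacks the tyrosine kinase. It read 8.76, 8.79 and 8.85 in the M0505 arrays and 6.62, 6.90 and 6.81 in the STOSE arrays. The groups were well apart, with a 4.06-fold fall (log2 difference −2.02, standard error 0.08, limma adjusted p = 2.71e-07).

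*Fgfr2*, whose epithelial isoform is the main receptor of FGF10, was lower by 1.87-fold, under the 2-fold limit. It read 8.49, 7.97 and 7.91 in the M0505 arrays and 7.57, 7.15 and 6.96 in the STOSE arrays (log2 difference −0.90, standard error 0.19, limma adjusted p = 0.00369). In both lines replicate 1 was the highest array, and the call was gained without STOSE replicate 1 (−1.07) or without M0505 replicate 3 (−1.01). The probe set reads the gene as a whole and does not separate the isoforms.

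*Fgfr1* was lower by 1.42-fold and remained far above the background, at 9.86 ± 0.12 (SD, n = 3) in M0505 cells and 9.36 ± 0.02 in STOSE cells (log2 difference −0.51, limma adjusted p = 3.84e-04). *Fgfr4* stayed near the background, at 5.22 ± 0.09 and 5.43 ± 0.08. In STOSE cells *Fgfr1* and *Fgfr2* thus lay more than 2 log2 units above the background, while *Fgfr3*, at 5.53 ± 0.19, lay within 1.

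Of the VEGF receptors, *Kdr* and *Flt4* fell and *Flt1* did not. *Kdr* encodes VEGFR-2, the main signaling receptor for VEGF-A, and had the largest difference among the 44 genes. It read 9.53, 9.67 and 9.53 in the M0505 arrays and 4.58, 4.58 and 4.08 in the STOSE arrays. Every STOSE array lay under the background. The fall was 35.9-fold (log2 difference −5.17, standard error 0.13, limma adjusted p = 2.36e-08) by the measured values. Against the background itself M0505 cells were at least 28.6-fold higher.

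*Flt4* encodes VEGFR-3, the receptor of VEGF-C and VEGF-D in lymphatic endothelium. It read 8.96, 9.54 and 9.35 in the M0505 arrays and 4.84, 5.11 and 5.07 in the STOSE arrays. M0505 replicate 1 was the lowest of its line, and still lay more than 3 log2 units above every STOSE array. The fall was 19.4-fold (log2 difference −4.28, standard error 0.14, limma adjusted p = 1.02e-07), and 17.8-fold to 21.7-fold when any 1 array was dropped. *Flt1*, which encodes VEGFR-1, read 4.97 to 5.05 in M0505 cells and 5.17 to 5.36 in STOSE cells, close to the background in both (log2 difference 0.24, 95% interval 0.08 to 0.39).

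Of 10 endothelial markers, 7 lay above the background by their mean in each line, 1 was called lower (*Esam*, an adhesion molecule, from 8.12 ± 0.04 to 5.35 ± 0.10, SD, n = 3) and none higher. The mean log2 value of the list ranged from 5.18 to 5.26 over the M0505 arrays and from 4.92 to 5.02 over the STOSE arrays. In M0505 cells, where *Kdr* and *Flt4* were high, *Pecam1* (4.69 ± 0.03), *Erg* (4.41 ± 0.01) and *Emcn* (2.99 ± 0.05) lay under the background and *Cdh5* (4.81 ± 0.03) and *Tek* (4.76 ± 0.12) within 0.1 of it. *Egfl7* (6.31 ± 0.10), *Cldn5* (5.63 ± 0.03), *Vwf* (5.33 ± 0.12) and *Tie1* (5.13 ± 0.08) lay above it, as did *Esam*. The lymphatic endothelial genes *Prox1* (3.64 ± 0.15) and *Lyve1* (4.38 ± 0.09), added after the values of *Flt4* were seen, also lay under it. Of the other 2 of that list, *Ccl21a* read 5.00 ± 0.09 in M0505 cells and 5.18 ± 0.09 in STOSE cells and was not called, and *Reln* fell 4.17-fold, from 6.93 ± 0.16 to 4.87 ± 0.18. Of 10 leukocyte markers 2 lay above the background, and 1, *Cd68*, was called lower. The endothelial and leukocyte lists thus each had 10.0% called, against 12.5% of all genes. The part of these marker genes in the *Kdr* and *Flt4* values was not tested.

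**Figure D2:**
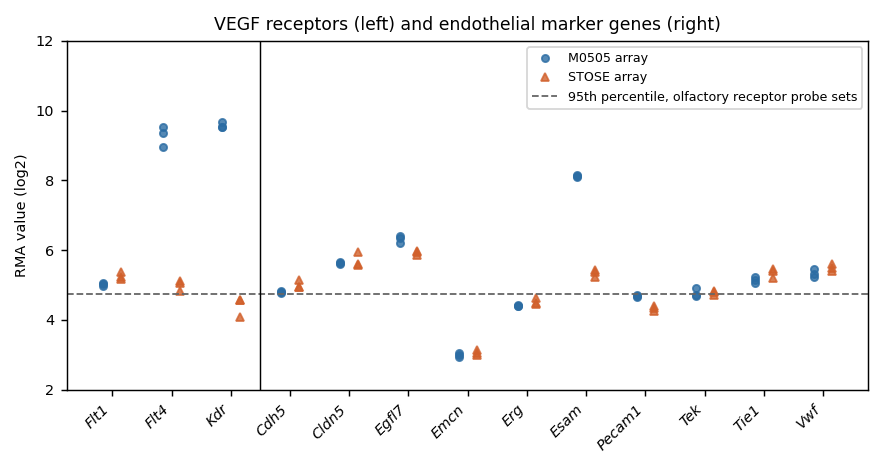
Log2 RMA value (vertical axis) of the 3 VEGF receptors (left of the line) and 10 endothelial marker genes (right) in the 3 M0505 arrays (circles) and 3 STOSE arrays (triangles), with the background of 4.74 dashed. *Kdr* and *Flt4* lie at 8.96 to 9.67 in M0505 arrays, where *Esam* is the only marker above 7.

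None of the 5 VEGF ligands was called. *Vegfa*, the chief ligand of KDR, read 9.42 ± 0.08 (SD, n = 3) in M0505 cells and 9.15 ± 0.04 in STOSE cells, a difference of 1.20-fold (limma adjusted p = 0.00643). *Figf*, which RefSeq names *Vegfd*, read 8.72 ± 0.06 and 8.46 ± 0.09 and differed by 1.20-fold (adjusted p = 0.0110). The ligands thus stayed far above the background in STOSE cells while their receptor genes *Kdr* and *Flt4* were near or under it. *Vegfb* read 8.76 ± 0.20 and 8.93 ± 0.03, with overlap, and the placental growth factor gene *Pgf* lay under the background in both lines.

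*Vegfc*, the other ligand of FLT4, was the ligand of this family that differed most. It read 4.48, 4.55 and 4.63 in the M0505 arrays, under the background, and 5.82, 5.34 and 5.45 in the STOSE arrays. The difference of 1.97-fold fell just short of the limit (log2 difference 0.98, standard error 0.12, limma adjusted p = 1.43e-04). Against the background itself STOSE cells were at least 1.73-fold higher. The limit was passed without M0505 replicate 3 (1.02), without STOSE replicate 2 (1.07) or 3 (1.02), and after median centring (1.18).

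*Pdgfb* was the PDGF ligand that rose. It encodes the PDGF-B chain, which recruits pericytes to vessels. It read 7.13, 7.21 and 7.11 in the M0505 arrays and 8.47, 8.42 and 8.30 in the STOSE arrays, a gap of more than 1 between the lines. The rise was 2.38-fold (log2 difference 1.25, standard error 0.07, limma adjusted p = 1.24e-06), and 2.32-fold to 2.46-fold when any 1 array was dropped.

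*Pdgfa* and *Pdgfc*, the ligands of the alpha receptor, were far above the background and overlapped between the lines. *Pdgfa* read 8.82 ± 0.09 (SD, n = 3) in M0505 cells and 8.89 ± 0.05 in STOSE cells, with a 95% interval of the log2 difference from −0.08 to 0.22. *Pdgfc* read 8.96 ± 0.03 and 8.91 ± 0.03, with an interval from −0.18 to 0.07. *Pdgfd* lay under the background in every array, at 3.29 to 3.57.

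Of the PDGF receptors, *Pdgfra*, which binds PDGF-A, -B and -C, was higher in STOSE cells by 1.79-fold. It read 6.96, 6.87 and 6.77 in the M0505 arrays and 8.12, 7.66 and 7.34 in the STOSE arrays (log2 difference 0.84, standard error 0.17, limma adjusted p = 0.00331). The STOSE arrays were spread over 0.78, more than the M0505 arrays, and without STOSE replicate 3 the difference passed 2-fold (1.02). *Pdgfrb*, the receptor of PDGF-B that marks pericytes, lay under the background by its mean in both lines, at 4.41 ± 0.13 and 4.73 ± 0.12. *Pdgfrl*, a receptor-like gene without a kinase, read 5.32 ± 0.09 and 5.01 ± 0.06, and its second, dimmer probe set differed by 0.06 the other way. Of 10 pericyte and smooth muscle markers, *Acta2* (5.04-fold), *Tagln* (2.88-fold) and *Mcam* (2.39-fold) were called higher and *Cnn1* (2.49-fold) lower. That is 40.0% called in either direction, against 12.5% of all genes. The list mean was 6.22 to 6.30 over M0505 arrays and 6.30 to 6.62 over STOSE arrays. The part of these markers in the *Pdgfra* and *Pdgfb* values was not tested.

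*Met*, the receptor of HGF, rose while *Hgf* was not above the background in any array. *Met* read 8.50, 8.62 and 8.69 in the M0505 arrays and 10.19, 10.16 and 10.15 in the STOSE arrays. The STOSE arrays lay within 0.04 of each other and all above the highest M0505 array. The rise was 2.96-fold (log2 difference 1.57, standard error 0.06, limma adjusted p = 3.26e-07), and 2.87-fold to 3.05-fold when any 1 array was dropped. *Hgf* read 3.75 to 3.84 over all 6 arrays (95% interval of the log2 difference −0.14 to 0.11).

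**Figure D3:**
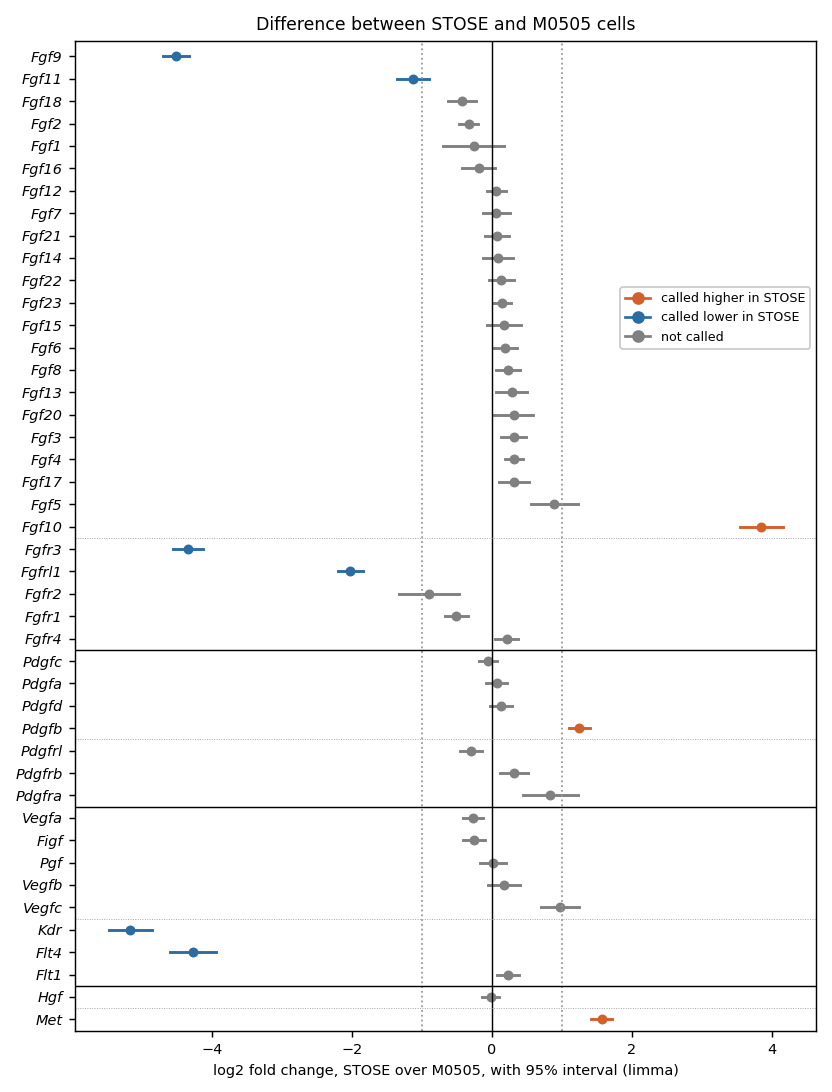
Log2 fold change of STOSE over M0505 cells (horizontal axis) for the 44 genes, as limma estimates (points) with 95% intervals (bars), in the order of the plot by array; dotted lines mark 2-fold, orange marks genes called higher and blue genes called lower. The 3 called rises run from 1.25 to 3.86 and the 6 called falls from −1.13 to −5.17, and the intervals of *Fgf11*, which was called, and of *Fgf5*, *Vegfc*, *Pdgfra* and *Fgfr2*, which were not, cross the 2-fold lines.

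Each of these genes was read together with its place in the genome. The 250 bases before the start of the 5 genes with log2 differences over 3.5 in size are shown because these carry the largest changes among the 44, with the sequences from RefSeq (build GRCm38.p6, 5′ to 3′ on the gene's strand, the most upstream listed start). Capitals mark GC boxes, the letters GGGCGG or their reverse complement CCGCCC, which factors of the Sp and KLF families are known to bind.

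Kdr, chr5:75978456-75978705, minus strand: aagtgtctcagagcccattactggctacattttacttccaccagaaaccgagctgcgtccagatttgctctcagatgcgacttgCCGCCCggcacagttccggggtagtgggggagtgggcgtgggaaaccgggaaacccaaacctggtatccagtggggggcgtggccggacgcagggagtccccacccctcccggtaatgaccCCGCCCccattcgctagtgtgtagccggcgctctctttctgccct

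Fgf9, chr14:58072436-58072685, plus strand: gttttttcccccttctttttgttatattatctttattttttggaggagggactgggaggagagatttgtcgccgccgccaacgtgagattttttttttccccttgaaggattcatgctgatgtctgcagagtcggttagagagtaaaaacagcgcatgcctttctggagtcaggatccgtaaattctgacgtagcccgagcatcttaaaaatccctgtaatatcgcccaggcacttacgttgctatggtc

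Fgfr3, chr5:33721474-33721723, plus strand: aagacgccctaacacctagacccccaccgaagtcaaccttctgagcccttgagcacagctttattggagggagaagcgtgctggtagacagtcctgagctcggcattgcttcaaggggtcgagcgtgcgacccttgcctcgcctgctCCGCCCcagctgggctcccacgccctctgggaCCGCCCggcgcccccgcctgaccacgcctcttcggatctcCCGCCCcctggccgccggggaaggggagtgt

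Flt4, chr11:49609429-49609678, plus strand: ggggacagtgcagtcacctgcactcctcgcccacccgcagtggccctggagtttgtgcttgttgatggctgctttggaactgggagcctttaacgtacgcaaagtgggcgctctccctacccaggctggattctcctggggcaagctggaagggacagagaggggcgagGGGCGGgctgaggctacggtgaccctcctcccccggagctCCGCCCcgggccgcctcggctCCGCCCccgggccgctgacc

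Fgf10, chr13:118714449-118714698, plus strand: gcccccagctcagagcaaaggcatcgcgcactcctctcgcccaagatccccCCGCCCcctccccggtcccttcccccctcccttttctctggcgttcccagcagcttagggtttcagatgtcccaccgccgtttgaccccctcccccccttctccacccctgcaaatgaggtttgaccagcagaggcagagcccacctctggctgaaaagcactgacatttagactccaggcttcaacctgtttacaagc

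The windows of *Fgfr3* and *Flt4* held 3 GC boxes each, that of *Kdr* 2, that of *Fgf10* 1 and that of *Fgf9* 0. A GC box was found in 33.0% of the 27025 windows of the same length, 1 a gene, and in 22 of the 34 windows that RefSeq gave for the 44 genes. The letters TATAAA, on either strand, were in none of the 5 windows and in 13.0% of all windows. CCAAT, on either strand, was in that of *Fgfr3* alone and in 34.5% of all windows, and the E-box CACGTG was in none of the 5 and in 6.04% of all. No pair of these motifs overlapped in the 5 windows. The 4 genes that fell most had 11 to 19 CpG dinucleotides and *Fgf10* had 8. The median was 6 over all windows (quartiles 2 and 16) and 13 over those of the families. Of the other called genes with a window, *Met*, called higher, had 24, and *Fgf11* and *Fgfrl1*, called lower, had 5 and 30. A match is a description of the letters, and the arrays carry no measurement of these windows.

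On chromosome 5, *Pdgfra*, *Kit* and *Kdr* follow each other with no other protein-coding gene between them. Their log2 differences were 0.84 for *Pdgfra*, 0.03 for *Kit* and −5.17 for *Kdr*, and only the last was called. The paper's karyotypes showed a loss of chromosome 5 in all STOSE cells examined, which it did not list for M0505 cells. It described the STOSE cells as near-triploid or polyploid and the M0505 cells as near-diploid or near-tetraploid. The loss alone therefore does not give the copies of chromosome 5 relative to M0505 cells. *Kdr*, *Fgfr3* and *Fgfrl1*, called lower, lie on this chromosome. So do *Fgf5*, *Pdgfra*, *Pdgfa*, *Flt1* and *Hgf*, which were not called. *Hgf* lay under the background and *Flt1* close to it in both lines, so a fall like that of *Kdr* could not have been seen in them. The part of copy number in these values was not tested. On chromosome 7, *Fgf3*, *Fgf4* and *Fgf15* adjoin each other, with 1 gene between *Fgf15* and *Ccnd1*, which encodes cyclin D1. *Ccnd1* was higher in STOSE cells by a log2 difference of 2.63. The differences of *Fgf3*, *Fgf4* and *Fgf15* were 0.31, 0.32 and 0.17, the last not past the adjusted p, and the 3 genes read 4.67 to 5.61 in every array.

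Other genes of the pathways were taken from lists, of which 89 genes were on the array, 7 of them called higher and 13 lower, which is 22.5% in either direction against the 12.5% of all genes (4.9% higher and 7.59% lower). Of the 89, 8 were not above the background in either line by their mean, against 5643 of all 20405 genes. The shares are therefore not of like sets. Among 23 co-receptors, binding and processing proteins, 4 were higher and 5 lower. *Ccbe1*, needed to process VEGF-C, fell from 9.39 ± 0.07 (SD, n = 3) to 5.43 ± 0.23, which is 15.6-fold. *Flrt1*, a membrane protein that binds FGF receptors, fell from 10.09 ± 0.07 to 6.29 ± 0.07, which is 14.0-fold, while its relatives *Flrt2* (2.16-fold) and *Flrt3* (at least 2.13-fold, with the M0505 mean under the background) rose. *Spint1* (6.53-fold higher) and *Spint2* (4.80-fold lower) encode inhibitors of the proteases that activate HGF, and moved in opposite directions. Of the neuropilins, which are VEGF co-receptors and were chosen for mention after their values were seen, *Nrp2* was 2.15-fold higher and *Nrp1* read 9.45 ± 0.05 and 9.50 ± 0.06.

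Of 26 adaptors and proximal signaling genes, 1 (3.85%) was called, *Plcg2* (3.27-fold lower), against 12.5% of all genes. The others lay between log2 differences of −0.89 and 0.57. Of 16 FGF feedback and induced genes, *Spry1* (5.18-fold) and *Egr1* (2.25-fold) were higher and *Il17rd* (2.25-fold) and *Fos* (2.22-fold) lower. *Spry1* and *Il17rd* both encode inhibitors of FGF signaling, so the called genes of this list did not share a direction, and its median log2 difference was 0.01 against 0.08 for all genes. Of the 16, 12 passed the adjusted p, 6 in each direction, against 56.5% of all genes (31.6% higher and 24.8% lower). Among those under 2-fold, *Spry2* (log2 difference 0.73), *Dusp5* (0.64), *Spred1* (0.44) and *Dusp4* (0.43) were higher, and *Spred3* (−0.93), *Etv5* (−0.66), *Spry3* (−0.60) and *Spry4* (−0.29) lower. The smallest differences of the list were those of *Dusp6* and *Etv4*. *Dusp6*, a phosphatase often read as a measure of FGF signaling, was at 10.37 ± 0.15 (SD, n = 3) and 10.33 ± 0.08, and *Etv4* at 8.47 ± 0.30 and 8.43 ± 0.14.

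Of 24 genes of heparan sulfate synthesis and breakdown, 1 was called higher and 5 lower. Over all genes 4.9% were called higher and 7.59% lower. The lower genes included *Extl1* (3.74-fold), *Xylt1* (3.51-fold) and *Extl3* (2.51-fold), which encode enzymes that build or start the chains, and *Hpse* (at least 2.59-fold, with the STOSE mean at 4.74, not above the background), which encodes heparanase, the enzyme that cuts them. The higher gene, *Ndst3*, read 3.66 ± 0.15 (SD, n = 3) and 4.73 ± 0.47, under the background in both lines by its mean. The median log2 difference of the list was −0.04.

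Among 46 other receptor tyrosine kinase genes, 6 were called higher and 6 lower, with a median log2 difference of 0.08. That is 26.1% called in either direction, against 12.5% of all genes. The largest changes were those of *Ddr2* (at least 38.0-fold higher, with the M0505 mean under the background), *Epha4* (5.51-fold higher), *Erbb4* (at least 3.52-fold lower, with the STOSE mean under the background) and *Ephb1* (3.40-fold lower). None of these 46 fell by as much as *Kdr*, *Fgfr3* or *Flt4*, the lowest log2 difference among them being −2.14.

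**Figure D4:**
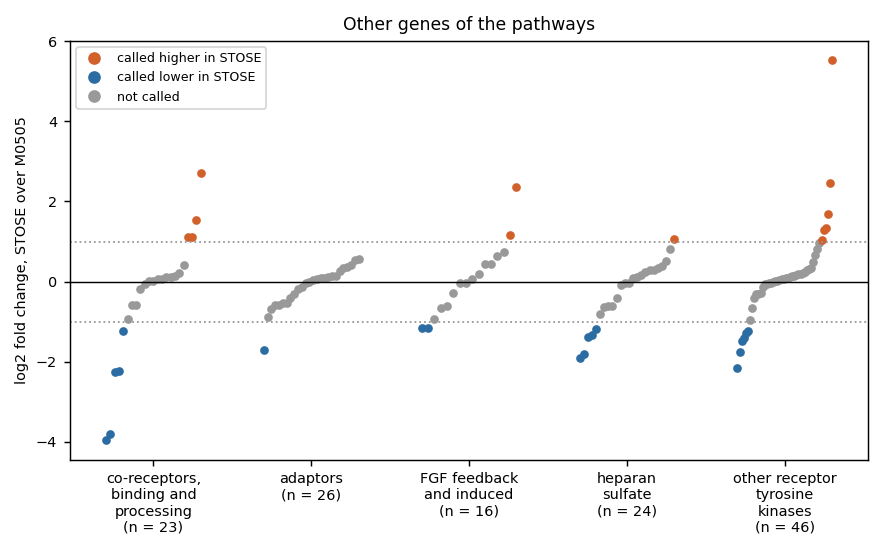
Log2 fold change of STOSE over M0505 cells (vertical axis) for each gene (point) of the 4 pathway lists and of the other receptor tyrosine kinases, sorted within a list; orange marks genes called higher, blue genes called lower and grey genes not called, with dotted lines at 2-fold. The adaptors stay within the 2-fold lines except *Plcg2* at −1.71, and the co-receptor and processing list spans −3.96 to 2.71.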

How the data were processed

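RNA of M0505 and STOSE cells (3 arrays each) was hybridised to Mouse Gene 1.0 ST arrays of Affymetrix. The authors deposited log2 RMA values per array, made with Affymetrix Expression Console according to the submitters' processing notes, with the mean of each line, a ratio and a linear fold change. The last 2 were not used, and 0 columns were left over. The genome build and the annotation release are not given in the sources used here. Of 28944 probe sets, 23530 carried a symbol for 20405 genes, each kept as its brightest probe set by the mean of the 6 arrays.

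Under R 4.3.3, limma 3.58.1 (lmFit, eBayes) compared the lines without covariates, and p-values were adjusted over all genes by Benjamini-Hochberg. On simulated data of 20405 genes, 200 were changed by sizes that all exceeded the 2-fold limit, and 99.5% of these were recovered with 0 false calls. The simulation does not show how often a change near the limit is found. All 44 members are accounted for, and those called or between 1.5-fold and 2-fold are given by array, with the receptors and the ligands of called receptors named in any case. Of 90 pathway genes listed, 89 were matched by symbol. The 4 called genes with the largest changes were named per list, and others named were chosen after their values were seen. The members and lists were chosen with earlier results of these data known. Symbols and gene order come from RefSeq (GRCm38.p6). The alternatives were normalizations, filters, tests, limits, a replicate block and leaving out each array.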

Additional observations from a re-analysis of the deposited data

How the results depend on the processing

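Of the 9 calls among the 44 genes, *Fgf11* lost its call after median centring and under limma's test against 2-fold, and the other 8 kept direction and call in each alternative that could be run on them (*Fgf10* and *Fgf11* are not among the brighter 50% of genes). Median centring, over the genes tested, moved the median log2 difference of all genes from 0.08 to 0.28, the same shift for each gene, and turned the calls over all genes from 1000 higher and 1548 lower to 1466 and 1177, and those of the families from 3 and 6 to 6 and 5. The test against 2-fold called 2.47% of all genes higher and 4.87% lower, against 4.90% and 7.59%, and 3 and 8 of the pathway genes. With no fold limit the calls were 31.6% and 24.8% of all genes, 14 and 13 for the families and 26 and 34 for the pathway genes. With each array left out in turn, 3 to 5 members were called higher, the 5 without STOSE replicate 3 taking in *Pdgfra* and *Vegfc*. Genes near no difference changed sign. After a further quantile normalization *Fgf12* was at −0.026, *Fgf21* at −0.0025 and *Pgf* at −0.061. After median centring *Fgf16* was at 0.013, *Hgf* at 0.18 and *Pdgfc* at 0.15. When 1 array was left out, *Fgf7* ranged from −0.013 (without STOSE replicate 1) to 0.12, *Hgf* from −0.042 to 0.0026 (without STOSE replicate 2), and *Pgf* from −0.051 (without STOSE replicate 1; −0.0018 without M0505 replicate 3) to 0.096. Of the 44 genes, 33 lay above the background in STOSE cells at the 95th percentile of olfactory receptors and 21 at the 99th (5.52). The replicate numbers are shared by the lines, and deviations of same-numbered arrays correlated at 0.26, 0.04 and 0.25. Every array correlated best with its own number except STOSE replicate 2, which correlated best with M0505 replicate 3 (0.12). These small correlations neither show nor exclude a pairing. The methods' t-test at the same fold limit called 988 genes higher and 1543 lower after adjustment and 996 and 1546 before it, with 3 and 6 of the 44 both times. The replicate block called 1001 genes higher and 1548 lower and changed no call among the 44.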
